A study of Mus musculus with 24 samples.

Results

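The genes Otx2, Pou3f1, Zic2, Zic5, Sox3, Sall2, Lin28a and Lin28b, 8 regulators of the formative and primed epiblast, were followed through an endoderm differentiation of mouse embryonic stem cells. They were chosen by name as genes known for this state, by a rule that used no measured value but with earlier results of these data known; each symbol matched 1 entry, and they make up 8 of the 55401 entries of the count table. All 8 passed the filter on low counts, which left 17144 genes to test. The study asked how loss of SETD3, a histidine methyltransferase of actin, affects endoderm differentiation; the question put to these 8 genes was whether knock-out cells take up the formative programme and whether they keep it.

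CJ9 mouse embryonic stem cells were compared with a Setd3 knock-out line made from them with CRISPR-Cas9. Each genotype was sampled at day 0, day 2, day 3 and day 4, with 3 libraries in each of the 8 groups. Day 0 cells of both genotypes were stem cells kept in medium with LIF and antibiotics on mitotically inactivated mouse embryonic fibroblasts (feeders). Day 2 cells had been separated from the feeders and grown for 2 days in a serum-free endoderm medium. Day 3 and day 4 cells had then been passaged as single cells into the same medium with Activin A, a ligand that signals through the Nodal receptors. Knock-out cells came from a single line. Whether the 3 libraries of a group came from separate cultures is not stated, so the p-values measure only the spread between these libraries, which may be technical.

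Embryonic stem cells kept with LIF resemble the naive epiblast of the blastocyst. On the way to the germ layers they switch off naive factors and pass through a formative and then a primed state, in which OTX2, POU3F1 and the ZIC, SOX and SALL proteins named here are present beside the shared pluripotency factor OCT4. The primed epiblast then gives rise to the primitive streak, from which definitive endoderm comes, or to neural ectoderm, in which several of these genes are used again.

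Library totals ran from 18531390 to 24244958 counts. Setd3 itself lay between 97.1 and 127 CPM (counts scaled to the library total, here after TMM adjustment of the totals) in the 12 wild-type libraries and between 29.1 and 48.8 CPM in the 12 knock-out libraries, so no library went against its label, and its transcript was reduced but present (log2 fold change -1.40 at day 0 and -2.05 at day 4). The summed level of 5 naive markers lay between 2032 and 2336 CPM at day 0 over both genotypes. At day 2 it lay between 42.1 and 73.8 CPM in wild-type cells and between 183 and 233 CPM in knock-out cells. The sum of 3 primitive streak markers (T, Eomes, Mixl1) reached 669 to 1104 CPM in wild-type cells and 34.3 to 42.0 CPM in knock-out cells at day 3, and 589 to 694 against 114 to 209.5 CPM at day 4. The sum of 3 definitive endoderm markers (Sox17, Foxa2, Cxcr4) reached 520.3 to 605 CPM in wild-type cells and 44.2 to 92.4 CPM in knock-out cells at day 4. Feeder markers, 14 genes, summed to 1005 to 2719 CPM at day 0 and to at most 168 CPM from day 2 on. Sox1 and Sox2 are listed at 0 in all 24 libraries, and the cause was not tested, so the 0 of Sox1 says nothing about neural cells; the sum of the 4 neural markers, Sox1 among them, was at most 9.26 CPM in every library. In bulk libraries a gene that falls because fewer cells express it cannot be told apart from one that falls because each cell holds less of its RNA.

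**Figure D1:**
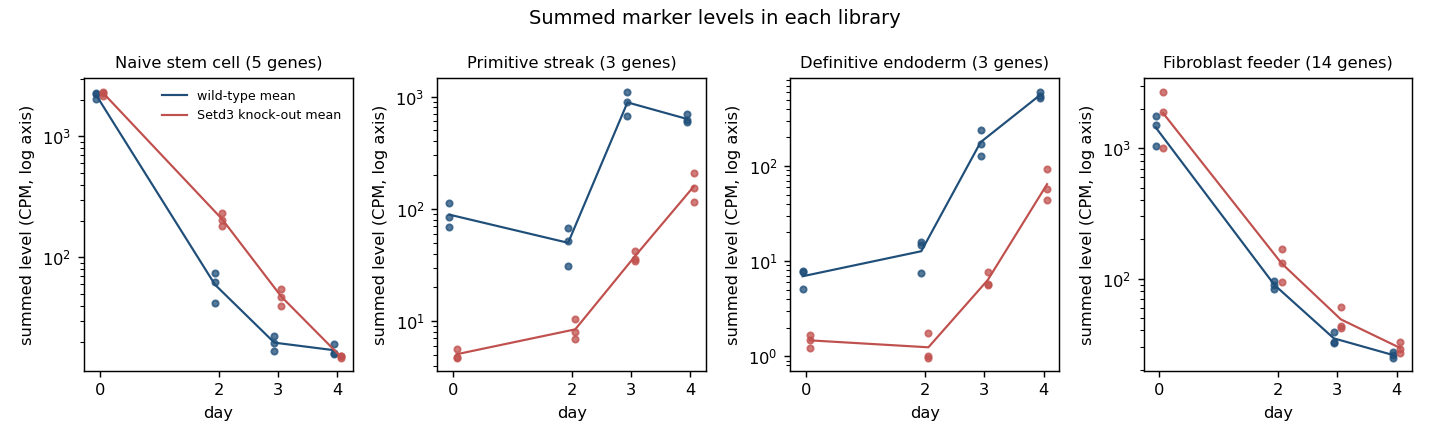
Summed level in CPM, on a log axis, of 4 marker lists against day of differentiation; each point is 1 library and each line joins the means of 3 libraries. The naive sum at day 2 is higher in all 3 knock-out libraries, and the streak and endoderm sums at days 3 and 4 are lower in all 3.

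Both genotypes raised all 8 genes between day 0 and day 2. A gene was called when edgeR's quasi-likelihood test gave it a p, adjusted by Benjamini and Hochberg's method over all tested genes, under 0.05. By this rule 8 of 8 rose in the wild type, where 32% of all tested genes rose and 31.8% fell, and 8 of 8 rose in the knock-out, where 29.5% rose and 30.6% fell. None fell in either, at an unadjusted p under 0.05 or by DESeq2's Wald test (0 each). The median log2 fold change of the 8 was 2.70 in the wild type and 2.65 in the knock-out, against 0.006 and -0.011 over all genes. Sall2 rose 19.7-fold in the wild type and 22.5-fold in the knock-out, and Lin28a, which was already the most abundant of the 8 at day 0, rose 1.86-fold and 1.87-fold.

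At day 2 the differences between the genotypes were small. Of the 8 genes, 0 were higher and 2 were lower in the knock-out (0 and 3 at an unadjusted p under 0.05, 0 and 2 by DESeq2), while 16.2% of all genes were called higher and 15.7% lower. The 2 were Zic5 (log2 fold change -0.18 ± 0.062 SE, adjusted p = 0.0269) and Lin28a (-0.13 ± 0.047, adjusted p = 0.039). Both calls were lost when single libraries were left out, for both genes without wild-type replicate 1 or without knock-out replicate 1. When the model was fitted to the 2 day 2 groups alone, 5 genes were called lower, with Sall2 (-0.27, adjusted p = 0.000349), Sox3 (-0.30, adjusted p = 0.0217) and Lin28b added. For Otx2, which drives the exit from the naive state, the difference was 0.076 with a 95% interval of -0.20 to 0.35, and for Pou3f1 it was -0.020 with an interval of -0.44 to 0.40. A test of the day 0 to day 2 step itself, knock-out minus wild type, called 1 of the 8 genes, Sox3, higher and 0 lower (2 and 1 at an unadjusted p under 0.05, 2 and 0 by DESeq2), beside 4.27% higher and 3.07% lower over all genes.

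Sox3 already differed in the stem cells. At day 0, 3 of the 8 genes were lower and 0 higher in the knock-out (5 and 0 both at an unadjusted p under 0.05 and by DESeq2), beside 10.5% of all genes called lower and 10.6% called higher. Sox3 stood at 4.81, 5.56 and 4.10 CPM in the wild-type and 0.662, 1.58 and 1.68 CPM in the knock-out stem cells, a log2 fold change of -1.87 ± 0.29 SE (adjusted p = 8.59e-05). Pou3f1 stood at 29.0, 20.7 and 16.6 CPM in wild-type cells and 9.62, 9.66 and 12.4 CPM in knock-out cells, a log2 fold change of -1.06 ± 0.25 (adjusted p = 0.00551). In both genes every knock-out library lay below every wild-type library, as was so for 16.7% of all genes at day 0. Lin28a was the other gene called, at -0.14 (adjusted p = 0.042), a call that was lost in 5 of 6 fits that left out 1 library. Without wild-type replicate 3 the count of lower genes was 5, and without wild-type replicate 1 Otx2 was called higher (0.49, adjusted p = 0.00769; 0.26 and adjusted p = 0.233 with all libraries). Feeder markers varied by library at day 0, from 1043 to 1779.7 CPM in wild-type cells and from 1005 to 2719 CPM in knock-out cells, so their ranges overlapped. Primitive streak genes moved with Sox3 and Pou3f1: 9 of 10 were lower in the knock-out at day 0 and 0 higher (median log2 fold change -4.09), and the sum of T, Eomes and Mixl1 lay between 68.4 and 113 CPM in wild-type and between 4.74 and 5.68 CPM in knock-out stem cells. The part of feeder and streak gene expression in these differences was not tested.

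After day 2 the courses of most of the 8 genes parted between the genotypes. From day 2 to day 4 in the wild type 7 of the 8 genes fell and 1, Otx2, rose, where 28.9% of all genes fell and 29.4% rose. Over the same step in the knock-out 2 fell (Pou3f1, Lin28a), 2 rose (Zic2, Lin28b) and 4 were not called, where 19.8% of all genes fell and 20% rose. The median log2 fold change of the 8 was -0.79 in the wild type and -0.05 in the knock-out, beside 0.0 and -0.008 over all genes. The difference between these steps was itself called for 7 of the 8, 6 higher and 1 lower in the knock-out, beside 16.4% of all genes higher and 15% lower.

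**Figure D2:**
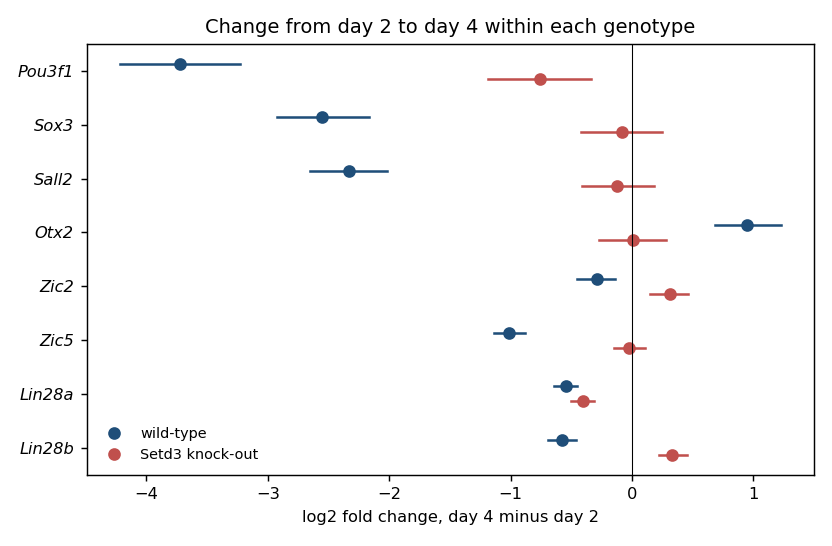
Log2 fold change from day 2 to day 4 for each gene in wild-type and Setd3 knock-out cells; points are estimates from the edgeR model and lines are approximate 95% intervals. Pou3f1, Sox3 and Sall2 lie at -3.72, -2.55 and -2.33 in the wild type and at -0.76, -0.084 and -0.12 in the knock-out, and Otx2 lies at 0.95 and 0.0052.

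Day by day, the wild-type step from day 2 to day 3 lowered 5 genes and raised 1, beside 21.1% of all genes lowered and 21.4% raised. The step from day 3 to day 4 lowered 7 and raised 1, beside 23.1% lowered and 22.4% raised. The 1 raised gene at the first step was Zic2 (0.19, adjusted p = 0.0486), a call that only 1 of its 11 alternative fits kept; at the second it was Otx2. In the knock-out the first step lowered 1 gene (Lin28a) and raised 1 (Lin28b), beside 14.4% of all genes lowered and 14.7% raised. The second step called none of the 8 (at an unadjusted p under 0.05, 1 higher and 2 lower; by DESeq2, 0 and 0), beside 5.76% of all genes higher and 5.83% lower. When the model was fitted to the 2 groups of that step alone, it called 1 gene higher and 3 lower.

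The genotypes were then compared at each day. At day 3, 3 of the 8 genes were higher in the knock-out (Pou3f1, Sox3, Sall2) and 1 was lower (Zic2), beside 20.8% of all genes called higher and 20.5% lower. At day 4, 6 were higher and 1 was lower, beside 26.3% of all genes called higher and 27.6% lower. The median difference of the 8 was 0.08 at day 3 and 0.80 at day 4, beside -0.01 and -0.013 over all genes. With no test, 6 genes had all 3 knock-out libraries above all 3 wild-type libraries at day 4 and 1 had them all below, where 29.3% and 31.4% of all genes did so.

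**Figure D3:**
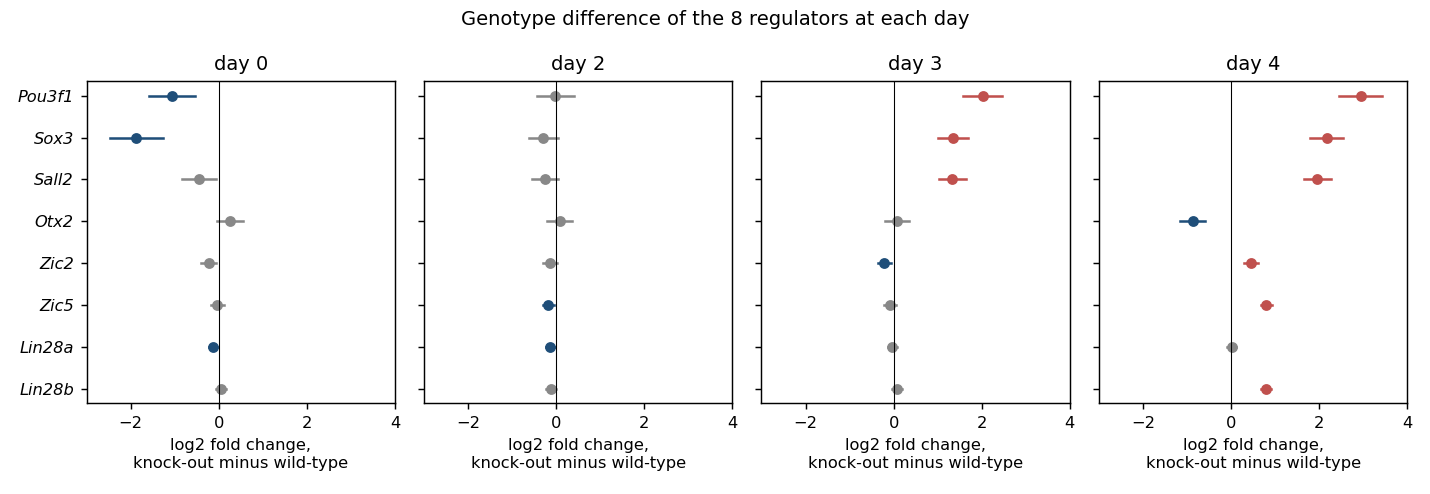
Log2 fold change of knock-out minus wild type for each gene at days 0, 2, 3 and 4, with approximate 95% intervals; red points were called higher, blue points lower and grey points not called at an adjusted p of 0.05. The differences of Pou3f1, Sox3 and Sall2 are at or below 0 at day 2 and between 1.33 and 2.94 at days 3 and 4.

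**Figure D4:**
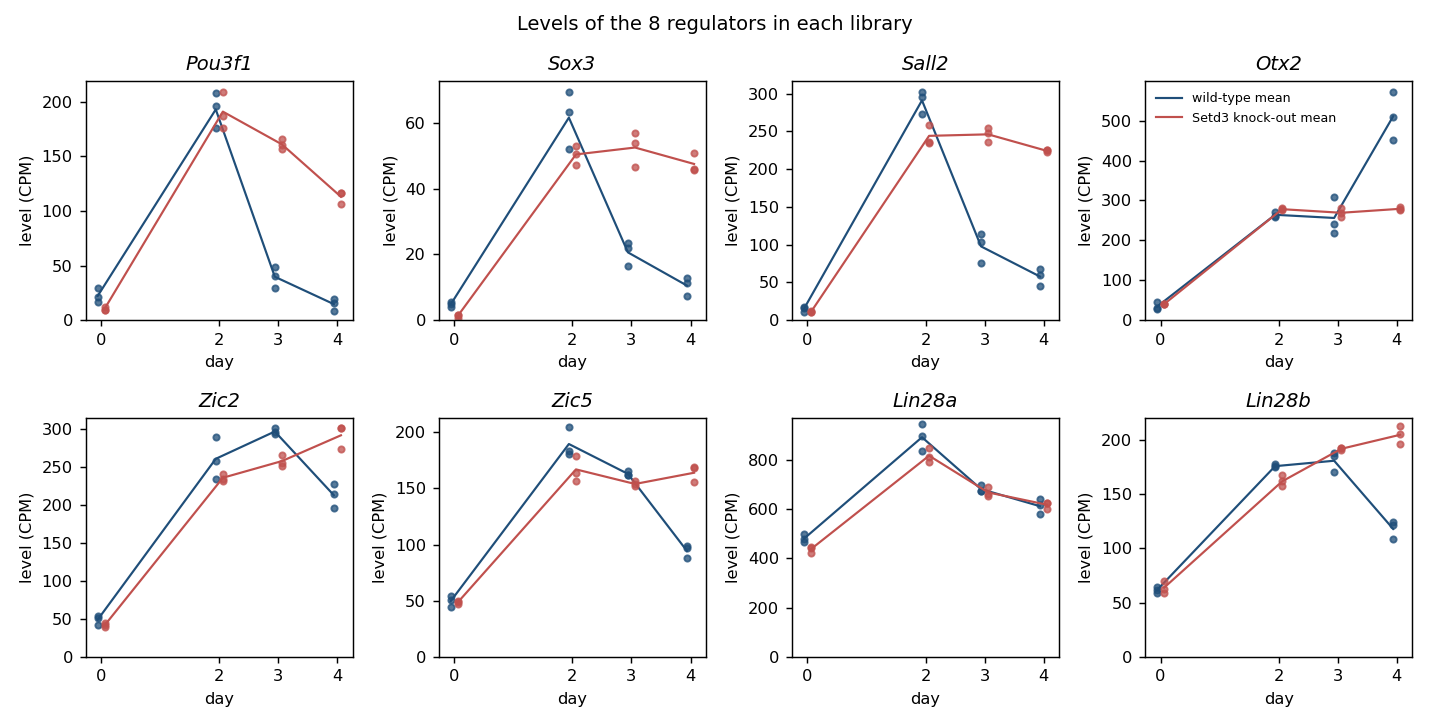
Level in CPM of each of the 8 genes against day of differentiation, with an axis that starts at 0; each point is 1 library and each line joins the means of 3 libraries. The lines of both genotypes run close to each other from day 0 to day 2, and for Pou3f1, Sox3 and Sall2 the wild-type line then drops. The knock-out line stays near its day 2 level for Sox3 and Sall2, and for Pou3f1 it falls by less than the wild-type line.

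Pou3f1, Sox3 and Sall2 showed the largest genotype differences of the 8. Pou3f1 (chr4:124656807-124660655, plus strand, GRCm38) encodes OCT6, a POU factor of the primitive ectoderm and later of neural progenitors and Schwann cells. Its level was 196, 176 and 208 CPM in wild-type cells and 187, 176 and 209 CPM in knock-out cells at day 2. At day 3 it was 29.7, 40.5 and 49.0 CPM in wild-type cells and 157, 166 and 160.5 CPM in knock-out cells. At day 4 it was 8.61, 16.1 and 19.1 CPM in wild-type cells and 116, 116 and 106 CPM in knock-out cells. The genotypes thus overlapped fully at day 2 and were widely separated at days 3 and 4, when the highest wild-type library lay far below the lowest knock-out library.

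The difference in Pou3f1 was 2.02 ± 0.21 (SE, log2) at day 3 (adjusted p = 8.23e-07) and 2.94 ± 0.23 at day 4 (adjusted p = 7.94e-09), a 7.69-fold higher level. The wild-type mean at day 4 was 7.53% of its day 2 mean and no longer above that of day 0, whose libraries it overlapped. In the knock-out it was 58.9% of day 2, a fall of its own (-0.76 ± 0.20, adjusted p = 0.00585). Of that knock-out fall, the step from day 3 to day 4 (-0.52, adjusted p = 0.11) did not pass the test in the model over all 24 libraries. Pou3f1 was thus the one gene of these 3 that fell between day 2 and day 4 in both genotypes, and the difference of the 2 falls was called (2.96 ± 0.30, adjusted p = 8.88e-07). The antisense gene Gm2164 covers 8.57% of its exon bases, with 18 to 308 counts per library against 175 to 4193 for Pou3f1; without stated strand use, their reads cannot be told apart there.

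Sox3 (chrX:60891366-60893430, minus strand) encodes a SOXB1 factor of the epiblast and the early neural plate and is the least abundant of the 8 in CPM. At day 2 its libraries held 63.2, 52.1 and 69.3 CPM in wild-type cells and 50.6, 47.3 and 53.1 CPM in knock-out cells. At day 3 they held 16.4, 22.0 and 23.5 against 57.0, 54.0 and 46.6 CPM. At day 4 they held 7.43, 11.2 and 12.9 against 45.6, 46.0 and 50.9 CPM. The knock-out groups of days 2, 3 and 4 overlapped one another, whereas the wild-type groups stepped down without overlap. The genotype difference was 1.35 ± 0.17 at day 3 (adjusted p = 2.21e-06) and 2.17 ± 0.18 at day 4 (adjusted p = 2.72e-09), and the day 4 mean was 17.1% of day 2 in the wild type and 94.4% in the knock-out.

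Sall2 (chr14:52311172-52328762, minus strand) encodes a zinc-finger protein of the spalt family, whose paralogue SALL4 belongs to the core pluripotency network. Its level at day 2 was 296, 273 and 302 CPM in wild-type cells and 236, 235 and 259 CPM in knock-out cells, a difference of -0.25 that was not called (adjusted p = 0.182) although every knock-out library lay below every wild-type library, as was so for 24.6% of all genes. At day 3 it was 75.9, 103 and 114 against 254, 248 and 236 CPM. At day 4 it was 45.7, 60.2 and 67.0 against 225, 225 and 223 CPM. The knock-out thus started slightly lower and then held most of its level while the wild type lost most of its own. The knock-out change from day 2 to day 4 was -0.12, not called in the edgeR model over all 24 libraries (adjusted p = 0.546). When the model was fitted to those 2 groups alone, it was called lower (-0.12, adjusted p = 0.0315). The difference was 1.33 ± 0.14 at day 3 (adjusted p = 7.23e-07) and 1.96 ± 0.15 at day 4 (adjusted p = 2.56e-09), with the day 4 mean at 19.8% of day 2 in the wild type and at 92.2% in the knock-out.

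For these 3 genes the courses differed over the first day of Activin A. The difference between the genotypes' day 2 to day 3 steps was called for 3 of the 8 genes, all higher in the knock-out (none lower, at an unadjusted p under 0.05 or by DESeq2, 0 each), beside 6.61% of all genes called higher and 4.33% lower. It was 2.04 ± 0.29 for Pou3f1, 1.64 ± 0.23 for Sox3 and 1.59 ± 0.20 for Sall2. The difference of day 3 to day 4 steps was called for 6 genes higher and 1 lower, beside 12.6% of all genes higher and 11.2% lower; it was 0.92, 0.82 and 0.63 for these 3 genes, with adjusted p of 0.0377, 0.0171 and 0.031. These later calls were less stable. Of 12 fits that each left out 1 library, 3 kept the call for Pou3f1, 4 for Sall2 and 11 for Sox3. None of the 3 was called without wild-type day 3 replicate 3. The calls for Pou3f1 and Sall2 were also lost with no filter on low counts and with only the groups compared. In the wild type, replicate 1 held the lowest level of all 3 genes at both day 3 and day 4 and the highest streak marker sum at both days (1104 and 694 CPM). The part of cell make-up in these differences was not tested.

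A promoter window of Sall2 is shown because it was the only one of these 3 genes for which a RefSeq window was matched. Windows ran from 250 bases before to 50 bases after a start site on GRCm38.p6, and were matched for 5 of the 8 genes (Otx2, Zic5, Sall2, Lin28a, Lin28b). They were searched on both strands for an octamer (ATTTGCAT, bound by POU factors), an OTX core (TAATCC), a ZIC core (CAGCAGG) and a SOX core (ACAATG); the 2 matches found lie in windows of different genes and overlap no other motif. Of 32851 RefSeq windows of this length, 1.74%, 7.06%, 10.5% and 12.6% held them. Matches are printed in capitals, and the Sall2 window, from its second start site, which has a GC content of 65.0%, held none of the 4 motifs.
Sall2, chr14:52316274-52316573, minus strand: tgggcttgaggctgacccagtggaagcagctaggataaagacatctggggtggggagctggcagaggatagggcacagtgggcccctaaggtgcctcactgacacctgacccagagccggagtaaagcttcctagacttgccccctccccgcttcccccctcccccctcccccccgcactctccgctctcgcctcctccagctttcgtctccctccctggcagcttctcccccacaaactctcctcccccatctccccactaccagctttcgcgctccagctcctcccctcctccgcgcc

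Otx2 went the other way. It lies at chr14:48657677-48673819 (minus strand) and encodes a homeodomain factor that directs OCT4 to formative enhancers and is used again in anterior mesendoderm, endoderm and forebrain. At day 2 its libraries held 261, 259 and 272 CPM in wild-type cells and 278, 280 and 277 CPM in knock-out cells. At day 3 they held 309.8, 239.7 and 219 against 268, 281 and 258 CPM. At day 4 they held 572, 510 and 451 against 276, 278 and 284 CPM. The genotypes were close at days 2 and 3, although at day 2 every knock-out library lay above every wild-type library, as was so for 24.5% of all genes, and among the groups of days 2 to 4 only the day 4 wild-type libraries stood clear of all the others. In the wild type Otx2 rose 2.00-fold from day 3 to day 4 (log2 1.00 ± 0.13, adjusted p = 4.99e-06), while in the knock-out the change was 0.055 with a 95% interval of -0.22 to 0.33. The genotype difference at day 4 was -0.87 ± 0.13 (adjusted p = 1.51e-05), with the knock-out at 0.547 times the wild-type level. This was the only negative genotype difference among the 7 members called at day 4, and it kept its call in all 11 alternative fits. The definitive endoderm marker sum rose over the same day in the wild type, from 127 to 237 CPM to 520.3 to 605 CPM; its part in the Otx2 difference was not tested. Otx2os1, on the opposite strand, had 13 to 135 counts per library, and other genes cover 3.98% of Otx2's exon bases.

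Of 4 RefSeq start sites of Otx2, the third is shown because its window held the only TAATCC match found among the members' windows, on the opposite strand (GGATTA) with its first base 211 before the start site.
Otx2, chr14:48665060-48665359, minus strand: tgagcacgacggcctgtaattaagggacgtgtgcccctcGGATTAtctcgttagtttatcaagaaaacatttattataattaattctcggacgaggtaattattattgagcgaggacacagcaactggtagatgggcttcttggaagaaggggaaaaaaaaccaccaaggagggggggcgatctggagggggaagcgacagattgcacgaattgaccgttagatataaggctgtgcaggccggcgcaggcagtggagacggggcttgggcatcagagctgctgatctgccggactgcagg

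Zic2 and Zic5 encode zinc-finger factors of the same family and are neighbours on chromosome 14 that point away from each other, with 9758 bases between their starts (Zic2, chr14:122475435-122479852, plus strand; Zic5, chr14:122456795-122465677, minus strand). Zic5 held 205, 181 and 183 CPM in wild-type cells and 164, 179 and 157 CPM in knock-out cells at day 2, and 162, 162 and 166 against 152, 157 and 154 CPM at day 3. At day 4 it held 87.6, 96.6 and 98.8 CPM in wild-type cells and 169, 168 and 156 CPM in knock-out cells. Wild-type Zic5 thus fell from day 2 to day 3 (-0.22 ± 0.062, adjusted p = 0.00722) and fell further from day 3 to day 4 (-0.79 ± 0.063, adjusted p = 3.99e-10), the larger step coming after the larger part of the fall of Pou3f1, Sox3 and Sall2 had taken place. In the knock-out the change over that day was 0.091 with an interval of -0.038 to 0.22. The genotype difference at day 4 was 0.80 ± 0.063 (adjusted p = 1.53e-10).

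Zic2 held 289.6, 234 and 258 CPM in wild-type cells and 232, 241 and 235 CPM in knock-out cells at day 2. It held 296, 302 and 294 against 255, 252 and 266 CPM at day 3, and 196, 214 and 228 against 301, 274 and 301 CPM at day 4. Its wild-type libraries were all above the knock-out at day 3 and all below it at day 4. At day 3, 27.4% of all genes had every knock-out library below, and 27.4% above, every wild-type library. The day 3 difference (-0.21 ± 0.075, adjusted p = 0.0318) lost its call in 5 of 6 fits that left out 1 library, whereas that at day 4 (0.46 ± 0.076, adjusted p = 1.67e-05) kept it in all 11 alternative fits. From day 2 to day 4 Zic2 fell in the wild type (-0.29, adjusted p = 0.00188) and rose in the knock-out (0.31, adjusted p = 0.00206), to 81.6% and 124% of day 2. The difference of these steps was 0.60 ± 0.11 for Zic2 and 0.98 ± 0.089 for Zic5.

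The Zic5 window is shown as the start of the pair from which a promoter was matched; it reaches towards Zic2 and held no ZIC core or other motif of the 4.
Zic5, chr14:122465609-122465908, minus strand: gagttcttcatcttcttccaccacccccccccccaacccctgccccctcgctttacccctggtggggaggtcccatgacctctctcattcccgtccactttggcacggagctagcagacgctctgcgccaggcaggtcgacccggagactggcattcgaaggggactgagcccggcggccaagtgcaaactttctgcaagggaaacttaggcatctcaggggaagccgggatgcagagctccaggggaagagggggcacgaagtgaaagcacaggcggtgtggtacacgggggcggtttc

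Lin28a and Lin28b encode RNA-binding proteins that bind the precursors of let-7 microRNAs and block their maturation, and let-7 in turn represses both. They are shown as 1 family because they differed in course. Lin28a (chr4:134003330-134018841, minus strand) held 944, 897 and 834 CPM in wild-type cells and 812, 789 and 846 CPM in knock-out cells at day 2, and 615, 641 and 578 against 626, 623 and 601 CPM at day 4. It was the 1 member whose genotypes overlapped at day 4, with a difference of 0.013 and a 95% interval of -0.084 to 0.11. It fell from day 2 to day 4 in both genotypes, by 0.54 on the log2 scale in the wild type and by 0.40 in the knock-out, and the difference of these falls was not called (0.14, adjusted p = 0.112). Gm13061, on the opposite strand, covers 5.86% of its exon bases and had at most 9 counts in a library.

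Lin28b (chr10:45376620-45486395, minus strand) held 178, 176 and 175 CPM in wild-type cells and 158, 162 and 168 CPM in knock-out cells at day 2. It held 171, 185 and 188 against 191, 193 and 193 CPM at day 3, and 109, 122 and 124 against 206, 213 and 196 CPM at day 4. The day 4 knock-out libraries were the highest of the course, while the day 4 wild-type libraries lay below all those of days 2 and 3. From day 2 to day 4 Lin28b fell in the wild type (-0.58 ± 0.057, adjusted p = 4.83e-09) and rose in the knock-out (0.33 ± 0.056, adjusted p = 3.59e-05), and the difference was 0.91 ± 0.080 (adjusted p = 5.41e-09). Per kilobase of exon the knock-out at day 4 still held 154 CPM of Lin28a and 22.6 CPM of Lin28b, so Lin28a remained the more abundant of the pair.

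The let-7 family is printed because its seed (bases 2 to 8, in capitals) pairs with sites in both genes; 9 of the 10 mature forms in the RefSeq table share the seed GAGGUAG and let-7j has GAGGUAU. Mature microRNAs are not captured by libraries of polyadenylated RNA, and their levels were not measured here. The sequences of 3 forms are:
let-7a-5p: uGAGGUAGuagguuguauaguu
let-7g-5p: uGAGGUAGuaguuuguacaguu
let-7i-5p: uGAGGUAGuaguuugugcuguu
The complement of the shared seed, CTACCTC, occurred 2 times in the 3' untranslated region of the Lin28a transcript and 4 times in that of Lin28b (GENCODE M21, the transcripts used having 2775 and 4445 bases there), and 0 times in those of the other 6 members. The first site of each gene, with the 14 bases before it and the base after, reads:
Lin28a: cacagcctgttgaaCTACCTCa
Lin28b: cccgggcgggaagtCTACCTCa

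The windows before the Lin28a and Lin28b starts had GC contents of 63.3% and 39.0%. That of Lin28a held a SOX core on the opposite strand (CATTGT, first base 96 before the start), and that of Lin28b held none of the 4 motifs.
Lin28a, chr4:134018767-134019066, minus strand: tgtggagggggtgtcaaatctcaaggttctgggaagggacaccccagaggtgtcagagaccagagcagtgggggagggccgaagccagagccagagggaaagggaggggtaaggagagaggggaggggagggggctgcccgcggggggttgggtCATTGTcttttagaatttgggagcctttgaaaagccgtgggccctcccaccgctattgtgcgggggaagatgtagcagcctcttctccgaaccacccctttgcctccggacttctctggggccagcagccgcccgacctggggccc
Lin28b, chr10:45470152-45470451, minus strand: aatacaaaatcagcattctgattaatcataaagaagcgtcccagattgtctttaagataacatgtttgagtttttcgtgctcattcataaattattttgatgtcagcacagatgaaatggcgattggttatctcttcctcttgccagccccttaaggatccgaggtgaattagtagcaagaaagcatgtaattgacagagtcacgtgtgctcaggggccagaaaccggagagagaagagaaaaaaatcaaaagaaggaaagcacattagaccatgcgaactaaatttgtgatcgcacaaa

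Among the other genes of the LIN28 and let-7 axis, 15 of which were tested, 6 were higher and 6 lower in the knock-out at day 4, beside 26.3% and 27.6% of all genes, with a median difference of 0.02. Dicer1, which cuts microRNA precursors, was higher at every day, by 1.52 at day 0 and 1.38 at day 4 on the log2 scale. Mycn, a MYC-family gene, was higher by 1.21 at day 4 (161, 156 and 154 against 65.9, 66.4 and 71.6 CPM). Arid3a, a DNA-binding factor, was lower by 1.09 (log2 fold change -1.09, adjusted p = 1.44e-08). Dicer1 was therefore shifted already in the stem cells, whereas the Mycn difference was -0.27 at day 0. The cause of the Dicer1 shift, and whether it bears on let-7, was not tested.

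Compared per kilobase of exon, the order of the 8 genes at day 2 was nearly the same in both genotypes. Lin28a was highest (223 and 204 CPM per kilobase in wild type and knock-out), followed by Zic2 (90.6 and 81.9) and Otx2 (62.6 and 65.9), and Lin28b was lowest (19.5 and 17.9). At day 4 the wild-type order had changed, with Otx2 at 121 CPM per kilobase above Zic2 at 73.9, and Pou3f1 last at 3.79. The knock-out at day 4 kept Zic2 (101) above Otx2 (66.2), with Pou3f1 at 29.2 and Lin28b last at 22.6.

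The patterns of the 8 genes over the 8 group means of log2 CPM were compared as a description, with no test, since the points share libraries and the rise from day 0. Pearson's r was highest for Sox3 with Sall2 and for Zic5 with Lin28b (0.98 each) and lowest for Otx2 with Pou3f1 (0.50). The search covered 10055 genes with at least 10 CPM in their highest group, the 8 members included but not ranked. Plch1, a phospholipase C gene, was the most like both Sall2 (r = 0.995) and Sox3 (0.991). It held 59.1, 30.8 and 21.1 CPM on average at days 2, 3 and 4 in the wild type and 49.3, 55.9 and 49.5 CPM in knock-out cells. Far2 (0.987) and the de novo DNA methyltransferase gene Dnmt3a (0.983) were among the 3 most like Pou3f1. Lpar2, a lysophosphatidic acid receptor gene, was the most like Otx2 (0.995), with 161 CPM in wild-type cells and 98.3 CPM in knock-out cells at day 4. The most like Zic2 was Dnajc9 (0.998), the most like Zic5 Ttc21b (0.993), the most like Lin28a Ror1 (0.986) and the most like Lin28b Ncapd2 (0.997).

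A further 17 formative and primed genes were split in the same contrasts. At day 2, 7 were higher and 2 lower in the knock-out, and at day 4, 9 were higher and 5 lower, with medians of 0.32 and 0.69. Of all genes 16.2% were higher and 15.7% lower at day 2, and 26.3% and 27.6% at day 4. On those days the counts of lower genes were near or below the background. At day 0, 1 of the 17 was higher and 3 were lower, beside 10.6% and 10.5% of all genes. At day 3, 10 were higher and 6 lower, beside 20.8% and 20.5%. At days 0 and 3 the lower genes were thus above the background share. Utf1, a chromatin protein of pluripotent cells, held 20.7, 37.6 and 39.2 CPM in wild-type cells and 329, 322 and 293 CPM in knock-out cells at day 4 (3.27 ± 0.21). Dnmt3a was higher by 1.32 ± 0.12 and the ETS factor gene Etv5 by 1.28 ± 0.10 at day 4. Fgf5, the classical marker of the primed epiblast, was lower in knock-out stem cells at day 0, with 1.32, 0.993 and 1.43 against 20.7, 24.9 and 18.8 CPM (-4.11 ± 0.13). Its day 2 libraries lay between 131 and 150.2 CPM in wild-type cells and between 120 and 131 CPM in knock-out cells, and the difference of the day 0 to day 2 steps was 3.98 ± 0.16. Like Pou3f1 and Sox3, Fgf5 was thus lower in knock-out stem cells, and its day 2 ranges met. Unlike them it was lower in the knock-out again afterwards, with 276, 272 and 291 against 433, 385 and 361 CPM at day 3 (-0.49 ± 0.07, adjusted p = 7.51e-06) and 319, 324 and 331 against 389, 395 and 376 CPM at day 4 (-0.25 ± 0.07, adjusted p = 0.00465). Fgf5 rose from day 2 to day 4 in both genotypes, by 1.48 in the wild type and 1.35 in the knock-out, so it was 1 of the 5 lower genes of this list at day 4, opposite in sign to Utf1, Dnmt3a and Etv5.

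Relatives of the members did not share one course. Of 8 tested, 1 was higher and 3 lower in the knock-out at day 4, with a median of -0.34, beside 26.3% and 27.6% of all genes; the counts are near that background. Sall4, the paralogue of Sall2, held 484, 453 and 472 CPM in wild-type cells and 265, 224 and 252 CPM in knock-out cells at day 4 (-0.92 ± 0.07), opposite in sign to Sall2. Sall3 was lower in the knock-out at day 3 (-3.88 ± 0.28), when its wild-type libraries held 32.3 to 39.1 CPM, and Pou3f4, a paralogue of Pou3f1, was higher at day 4 (0.94 ± 0.29).

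The states on either side were measured from lists of their genes. Of 16 naive pluripotency genes, 14 were higher in the knock-out at day 2, with a median of 1.18, where 16.2% of all genes were higher. The 4 with the lowest adjusted p were Klf2 (1.86 ± 0.15), Tcl1 (3.39 ± 0.28), Klf5 (1.25 ± 0.13) and Esrrb (2.43 ± 0.22). These genes nevertheless fell in both genotypes from day 0 to day 2. In the wild type 16 of 16 fell and in the knock-out 14 of 16, beside 31.8% and 30.6% of all genes. At day 4, 6 were higher and 4 lower, beside 26.3% and 27.6% of all genes, so the naive list no longer moved one way. Of 7 core pluripotency genes 6 were tested, without Sox2, which is listed at 0 in all libraries. At day 4, 4 were higher and 2 lower, Sall4 among the lower, beside 26.3% and 27.6% of all genes. Pou5f1, which encodes OCT4, was higher. It held 94.9, 151 and 175 CPM in wild-type cells and 488, 459.7 and 475 CPM in knock-out cells (1.76 ± 0.13).

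Of 10 primitive streak genes, 9 were lower in the knock-out at day 3 and 10 at day 4, and of 10 definitive endoderm genes 8 and 10 were lower, beside 20.5% and 27.6% of all genes. At day 2, 6 of the streak genes and 4 of the endoderm genes were already lower and 0 higher, beside 15.7% of all genes lower. Eomes, a T-box factor of the streak and endoderm, held 552, 492 and 412 CPM in wild-type cells and 32.2, 30.5 and 36.0 CPM in knock-out cells at day 3. The streak and endoderm genes also rose in the knock-out, 8 of 10 streak genes and 6 of 10 endoderm genes from day 2 to day 4 (20% of all genes). Over those days Sox3 and Sall2 were not called as changed there in the model over all 24 libraries. Of 12 neuroectoderm genes listed, 8 were tested. At day 4, 5 of these were higher and 1 lower in the knock-out, beside 26.3% and 27.6% of all genes, with a median of 1.74. Nes, which encodes nestin, held 396, 387 and 405 CPM in knock-out cells and 74.1, 122 and 148 CPM in wild-type cells (1.79 ± 0.17), and Map2, a neuronal microtubule protein gene, was higher by 1.69 ± 0.14. Sox21 was the 1 lower (-3.35 ± 0.35). The sum of 4 neural markers (Sox1, Pax6, Neurog2, Fabp7) overlapped between the genotypes at day 4. It lay between 2.09 and 3.14 CPM in knock-out cells and between 2.41 and 2.65 CPM in wild-type cells.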

How the data were processed

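RNA-seq libraries of polyadenylated RNA from 24 samples were grouped by genotype and day from their titles. The authors deposited raw read counts per gene as 1 table of whole numbers. Trimmomatic, HISAT2 and GRCm38.p6 were used, per the submitters' processing notes; versions, counting tool, annotation and use of strand: not given in the sources used here. Of 55401 entries, 55141 were found in GENCODE M21, and 1809 of 2090 entries without a symbol (T among them) were named from it.

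Counts were fitted with edgeR 4.0.16 (R 4.3.3; glmQLFit, robust, and glmQLFTest) in 1 model of 8 groups after TMM scaling and filterByExpr, which left 17144 genes; 16 comparisons were made. P-values were adjusted by Benjamini and Hochberg's method over these genes, with 0.05 as threshold. Intervals (95%) are approximate, from log2 fold change, F and t quantiles. CPM used TMM-scaled totals, and correlations used log2 CPM with a prior count of 2. The fit was also run on simulated data, whose outcome is not given here. Alternatives were DESeq2 1.42.0 (size factors and Wald test), no filter, only the groups compared, a replicate block and each library left out. No pair of replicates differed by as little as sampling noise.

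The members and lists were chosen with earlier results of these data known. All 8 members and Setd3 were named, and other genes were the up to 4 of a list with the lowest adjusted p in a comparison and the 3 most like each member.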

Additional observations from a re-analysis of the deposited data

Results flagged for a closer look

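The difference between the genotypes' steps, knock-out minus wild type in log2 units, passed edgeR's test for the following members. From day 0 to day 2 it was 1.58 for Sox3. From day 2 to day 3 it was 2.04 for Pou3f1, 1.64 for Sox3 and 1.59 for Sall2. From day 3 to day 4 it was 0.92 for Pou3f1, 0.66 for Zic2, 0.88 for Zic5, 0.82 for Sox3, 0.63 for Sall2 and 0.71 for Lin28b, and -0.94 for Otx2. From day 2 to day 4 it was 2.96 for Pou3f1, 0.60 for Zic2, 0.98 for Zic5, 2.46 for Sox3, 2.22 for Sall2 and 0.91 for Lin28b, and -0.95 for Otx2. In this last step the 7 calls were kept in all 17 alternative fits.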

How the results depend on the processing

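Of 960 member values recomputed with 1 library left out, 885 kept their direction and side of the threshold, 42 lost a call, 7 gained one and 26 changed sign; of 640 under other alternatives the numbers were 607, 11, 17 and 5. None of the 31 values that changed sign had been called.

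Counts of members that moved were as follows. Lower at day 0: 5 by DESeq2's Wald test, 2 to 5 (from 3) with a library left out; higher at day 0, 0 to 1. Lower at day 2: 1 with no filter, 5 with only the groups compared, 0 to 2 with a library left out. Lower at day 3: 0 to 1 with a library left out. Higher in the wild type from day 2 to day 3: 0 with DESeq2 size factors, no filter, the replicate block, only the groups compared and the Wald test, and 0 to 1 with a library left out. With only the groups compared, the knock-out gave 2 higher and 3 lower from day 2 to day 3, and 1 and 3 from day 3 to day 4. Higher in the difference of day 0 to day 2 steps: 2 with only the groups compared and by the Wald test, 1 to 2 with a library left out. Higher in the difference of day 3 to day 4 steps: 3 to 6 with a library left out, the 3 being without wild-type day 3 replicate 3. The cause of these shifts was not tested.

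Values that changed sign were all near 0. The Otx2 difference of day 2 to day 3 steps was 0.011 with DESeq2 size factors and by the Wald test, 0.0061 with the replicate block and 0.014 with only the groups compared, and the Sall2 knock-out step from day 2 to day 3 was -0.0017 with no filter. With a library left out, the ranges that crossed 0 were, for Otx2, -0.03 to 0.23 (genotype difference at day 3), -0.20 to 0.059 (wild type, day 2 to 3), -0.0052 to 0.013 (knock-out, day 2 to 4) and -0.11 to 0.15 (difference of day 2 to 3 steps). They were -0.088 to 0.037 for Pou3f1 at day 2, -0.14 to 0.0096 for Zic2 (difference of day 2 to 3 steps), -0.099 to 0.018 for Zic5 at day 0 and -0.063 to 0.032 for Zic5 (knock-out, day 2 to 4). In the knock-out from day 2 to 3 they were -0.0014 to 0.14 for Sox3 and -0.018 to 0.062 for Sall2. For Lin28a they were -0.022 to 0.05 at day 4 and -0.04 to 0.051 and -0.0055 to 0.077 for the differences of day 0 to 2 and day 3 to 4 steps, and for Lin28b at day 0 -0.0087 to 0.11. Depth limits Sox3 at day 0, with 13, 35 and 34 counts in the knock-out libraries.

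Replicate numbers were not taken to pair libraries, since only 3 of 84 same-numbered pairs correlated above 0.1. The correlation of deviations over these 84 pairs ran from -0.15 to 0.165 (median 0.021). However, 19 of 24 libraries correlated best with their own number, a hint of pairing that comes from the data and not from the design. With the replicate block the Zic2 call in the wild type from day 2 to day 3 was lost (0.19, adjusted p = 0.0573), and no other count of members moved by over 1.5 times.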
